A study of Mus musculus with 16 samples.

Results

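The let-7 and miR-98 family was measured by small RNA sequencing in cDC1s, the conventional dendritic cells that excel at cross-presentation, taken from mouse spleen by sorting. In these libraries 808 mature microRNAs had a count in at least 1 library, and a further 45 microRNAs were listed at 0 throughout. The family's 9 members were chosen by identifier, with a rule that names microRNAs and uses no values, though earlier results of these data were known. They are let-7a-5p (MIMAT0000521), let-7b-5p (MIMAT0000522), let-7c-5p (MIMAT0000523), let-7d-5p (MIMAT0000383), let-7e-5p (MIMAT0000524), let-7f-5p (MIMAT0000525), let-7g-5p (MIMAT0000121), let-7i-5p (MIMAT0000122) and miR-98-5p (MIMAT0000545). The 16 libraries formed 4 groups of 4, all of strain C57BL6: Xbp1 KO cells, Xbp1-Ire1 KO cells, which lack Xbp1 and Ire1a, and a WT group for each of these lines, named here Xbp1-line WT and compound-line WT. IRE1 senses stress of the endoplasmic reticulum, and its ribonuclease splices the Xbp1 transcript, which then encodes an active transcription factor, and can cleave other RNAs. The comparisons ask how the family's levels differ with loss of XBP1 and with loss of IRE1 in addition. The sources used here do not give the Cre driver or other means of deletion, nor the age or pooling of the mice. Nor is it stated that each replicate is another mouse, so the p-values speak only to the spread among these libraries, part of which may be technical.

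MicroRNAs guide Argonaute proteins to messenger RNAs mainly through their seed, bases 2 to 8 counted from the 5′ end. The let-7 family is abundant in differentiated cells and restrains growth and stem cell programmes, with Lin28, Hmga2, Ras and Myc transcripts among its known targets, and LIN28 proteins in turn block maturation of let-7 precursors. In dendritic cells, let-7i and let-7c have been linked to maturation through Socs1, an inhibitor of cytokine signalling. The targets and LIN28 are outside a table of mature microRNAs, as are the transcripts that define cDC1s, so neither these nor the genotype labels were checked.

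The mature sequences are shown because they decide both which messages the members share and how easily their reads can be confused. All 9 were matched by name to RefSeq entries on GRCm38.p6, and the seed is in capitals.
let-7a-5p: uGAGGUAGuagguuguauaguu
let-7b-5p: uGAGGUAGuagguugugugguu
let-7c-5p: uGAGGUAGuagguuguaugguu
let-7d-5p: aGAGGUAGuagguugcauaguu
let-7e-5p: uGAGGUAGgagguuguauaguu
let-7f-5p: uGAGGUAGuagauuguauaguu
let-7g-5p: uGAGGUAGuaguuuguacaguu
let-7i-5p: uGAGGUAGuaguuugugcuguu
miR-98-5p: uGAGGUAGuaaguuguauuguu

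Every member is 22 bases long and carries the same seed, and 14 of the 22 positions are identical in all 9. Counted from the 5′ end with let-7a-5p as reference, let-7f-5p differs by G12A alone, let-7c-5p by A19G alone and let-7e-5p by U9G alone. The sequence of let-7b-5p has A17G and A19G, and that of let-7g-5p has G12U and U18C. In let-7d-5p the changes are U1A and U16C, in miR-98-5p G11A and A19U, and in let-7i-5p G12U, A17G, U18C and A19U. Of the 36 pairs of members, 4 differ at a single base and 10 at 2 bases. The sources used here do not say how reads matching more than 1 member were counted, so part of a member's count may come from a neighbour in sequence, above all where a scarce member sits 1 base from an abundant one. RefSeq lists 2 further mouse microRNAs with this seed, let-7k and miR-1961. The files pair no identifiers with names. These 2, the opposite-arm products of the let-7 hairpins and the miR-99, miR-100 and miR-125 cluster partners could therefore not be picked out here. The same holds for microRNA markers of other cell types. Any of them may be among the microRNAs counted or given by identifier below.

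The members come from 12 hairpin genes on 7 chromosomes of GRCm38, and 3 members have more than 1 gene. The let-7a-5p sequence lies at chr13:48538239-48538260 on the minus strand in Mirlet7a-1 and at chr9:41536732-41536753 on the plus strand in Mirlet7a-2. That of let-7f-5p lies at chr13:48537889-48537910 on the minus strand in Mirlet7f-1 and at chrX:151912353-151912374 on the plus strand in Mirlet7f-2. The let-7d-5p sequence is at chr13:48536078-48536099 on the minus strand. Mirlet7a-1, Mirlet7f-1 and Mirlet7d thus form 1 cluster, with gaps of 261 and 1714 bases, and GENCODE M21 places all 3 over exons of the lincRNA 6720427I07Rik. Mirlet7f-2 and Mir98 (miR-98-5p at chrX:151913229-151913250, plus strand) are 785 bases apart in an intron of Huwe1. Mirlet7c-2 (chr15:85706616-85706637) and Mirlet7b (chr15:85707325-85707346) are 621 bases apart on the plus strand over exons of Lncppara, and the other let-7c-5p copy, Mirlet7c-1 (chr16:77599672-77599693, plus strand), is in an intron of Mir99ahg. The let-7e-5p sequence lies in an intron of Spaca6 (chr17:17830366-17830387, plus strand), let-7g-5p in an intron of Wdr82 (chr9:106178846-106178867, plus strand) and let-7i-5p over an exon of the pseudogene transcript D630033A02Rik (chr10:122985698-122985719, minus strand).

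Library totals ranged from 783372 to 1403393 microRNA counts in Xbp1 KO, from 400210 to 1103001 in the Xbp1-line WT, from 332923 to 882108 in the compound-line WT and from 175165 to 978134 in Xbp1-Ire1 KO. Depth thus moved with the groups. The libraries of each group differed by more than counting noise. Counting error was small for the abundant members. The widest Wilson 95% interval of let-7f-5p, in Xbp1-Ire1 KO 4, ran from 18.5% to 18.8% of the counts, whereas that of let-7e-5p in the same library ran from 0.0016% to 0.0075%. Such intervals cover counting error only, since PCR copies were not marked.

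The family was a leading part of the microRNA content of these cells. Its 9 members together took 37.7%, 36.4%, 30.1% and 30.2% of the counts in Xbp1-line WT 4, 5, 6 and 8. In Xbp1 KO 1 to 4 they took 44.5%, 42.8%, 43.4% and 36.8%. The compound-line WT libraries 1 to 4 gave 33.8%, 30.2%, 28.5% and 32.7%, and Xbp1-Ire1 KO 1 to 4 gave 33.5%, 33.0%, 29.0% and 27.2%. Xbp1 KO 1, 2 and 3 were the highest of the 16, and Xbp1 KO 4 lay among the Xbp1-line WT values. The group means were 33.6% ± 4.01 in the Xbp1-line WT, 41.9% ± 3.47 in Xbp1 KO, 31.3% ± 2.40 in the compound-line WT and 30.7% ± 3.07 in Xbp1-Ire1 KO (SD, n = 4 each). All 4 Xbp1-Ire1 KO libraries lay below all 4 Xbp1 KO libraries, and in the other pairs of groups compared the ranges overlapped. These are shares of a fixed total in bulk libraries, so fewer cells carrying a microRNA and less of it per cell cannot be told apart, and a sum over the members was given no test.

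**Figure D1:**
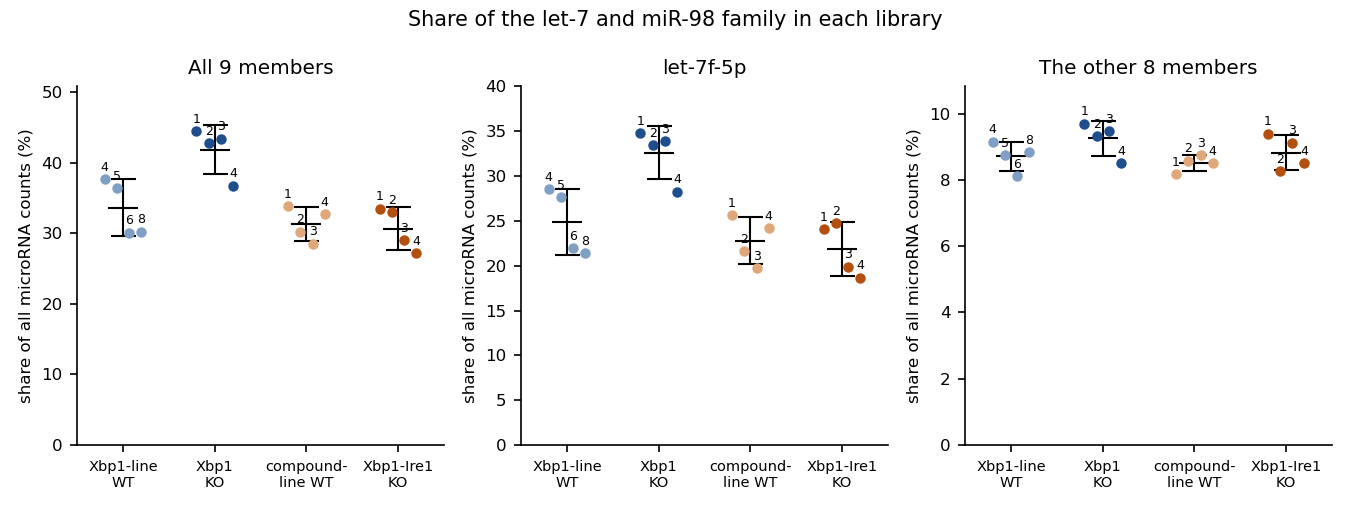
Share of all microRNA counts (percent, y axis) taken by all 9 members, by let-7f-5p and by the other 8 members in each library. Points are libraries with their replicate numbers and bars are group means ± SD (n = 4); the first 2 panels move together, from 27.2% to 44.5% for the family and 18.7% to 34.8% for let-7f-5p, while the other 8 members stay between 8.12% and 9.70% of all counts. Of the counts outside let-7f-5p, not drawn, these 8 took 10.4% to 14.9%.

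Most of that movement was let-7f-5p, the most abundant microRNA of each library. It took 28.5%, 27.6%, 22.0% and 21.4% of the counts in Xbp1-line WT 4, 5, 6 and 8, and 34.8%, 33.5%, 33.9% and 28.2% in Xbp1 KO 1 to 4. In compound-line WT 1 to 4 it took 25.6%, 21.6%, 19.7% and 24.2%, and in Xbp1-Ire1 KO 1 to 4 it took 24.1%, 24.7%, 19.9% and 18.7%. The lowest Xbp1 KO library thus lay just under the highest Xbp1-line WT library and above each library of the compound line. The other 8 members together held 8.71% ± 0.434 in the Xbp1-line WT, 9.25% ± 0.515 in Xbp1 KO, 8.51% ± 0.242 in the compound-line WT and 8.82% ± 0.527 in Xbp1-Ire1 KO (SD, n = 4). A larger let-7f-5p share leaves less of the total for them. Of the counts outside let-7f-5p they held 11.6% ± 1.04, 13.8% ± 1.32, 11.0% ± 0.142 and 11.3% ± 0.813 in the same order (SD, n = 4). By that measure too the ranges of Xbp1 KO, from 11.9%, and of Xbp1-line WT, up to 12.8%, overlapped. Member by member, the ranges of the unscaled shares of all counts in Xbp1 KO and its WT failed to overlap for 1 of 9, let-7i-5p, lower in Xbp1 KO, as for 13.3% of the 255 microRNAs that entered the tests. Between Xbp1-Ire1 KO and Xbp1 KO they did so for 2 of 9, let-7f-5p lower and let-7i-5p higher in Xbp1-Ire1 KO, as for 12.5% of the 255. Between Xbp1-Ire1 KO and compound-line WT it was 0 of 9 against 10.2%, and between the WT groups 0 of 9 against 4.31%.

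Below let-7f-5p the order of levels was steep. Over the 16 libraries let-7i-5p took 3.26% to 4.40% of the counts and let-7a-5p 2.73% to 4.27%, with ranks from 5 to 8 and from 5 to 10 among all microRNAs of a library. Next came let-7g-5p with 0.491% to 0.689%, let-7d-5p with 0.342% to 0.425%, let-7c-5p with 0.301% to 0.405% and miR-98-5p with 0.198% to 0.312%. The scarce members were let-7b-5p, at 0.0152% to 0.0372%, and let-7e-5p, at 0.00079% to 0.0071%. Within groups, neighbours in the order overlapped in 2 places. The ranges of let-7d-5p and let-7c-5p overlapped in each of the 4 groups, and those of let-7i-5p and let-7a-5p overlapped in all but Xbp1-Ire1 KO, where let-7i-5p was above let-7a-5p in all 4 libraries at 1.33 times its mean share. In Xbp1 KO alone the mean of let-7a-5p was above that of let-7i-5p, by 1.08 times. All members have the same length, so these shares needed no correction for length. Whether the different sequences were read equally well was not tested, so the order is one of counts.

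Of the middle and scarce members, let-7e-5p had group means that differed most in relative terms, on few counts. In the order Xbp1-line WT, Xbp1 KO, compound-line WT and Xbp1-Ire1 KO, let-7g-5p averaged 0.577%, 0.620%, 0.591% and 0.538% of the counts. let-7d-5p averaged 0.377%, 0.392%, 0.377% and 0.373%, and miR-98-5p 0.262%, 0.257%, 0.256% and 0.232%. For let-7b-5p the means were 0.0330%, 0.0262%, 0.0283% and 0.0267%, lowest in Xbp1 KO. Those of let-7e-5p were 0.0027%, 0.0041%, 0.0021% and 0.0027%, highest in Xbp1 KO. The cluster partner of let-7b-5p is let-7c-5p, 1 base away from it. Counts of let-7c-5p were 10.4 ± 0.958 times those of let-7b-5p in the Xbp1-line WT and 13.6 ± 0.935 times in Xbp1 KO. The ranges of these ratios did not overlap. In the compound line that ratio was 13.4 ± 2.87 in the WT and 13.8 ± 4.10 in Xbp1-Ire1 KO (SD, n = 4), so the Xbp1-line WT was the low group. Both hairpin genes of let-7c-5p add to its count.

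Membership of a shared cluster did not go with similar levels. On chromosome 13, let-7f-5p counts were 46.7 to 85.8 times those of let-7d-5p, and on the X chromosome 69.4 to 138.0 times those of miR-98-5p, over the 16 libraries. By group, let-7f-5p over miR-98-5p was 95.0 ± 12.9 in the Xbp1-line WT, 127 ± 7.96 in Xbp1 KO, 90.8 ± 18.2 in the compound-line WT and 96.0 ± 19.9 in Xbp1-Ire1 KO (SD, n = 4), with all Xbp1 KO values above those of its WT. The second hairpin gene of let-7f-5p lies in the other of these clusters in each case, so the part of its count from either gene is not known. Near identity in sequence did not go with similar levels either: let-7f-5p was 5.81 to 8.47 times let-7a-5p, 1 base away, and let-7a-5p was 588 to 3914 times let-7e-5p, also 1 base away.

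**Figure D2:**
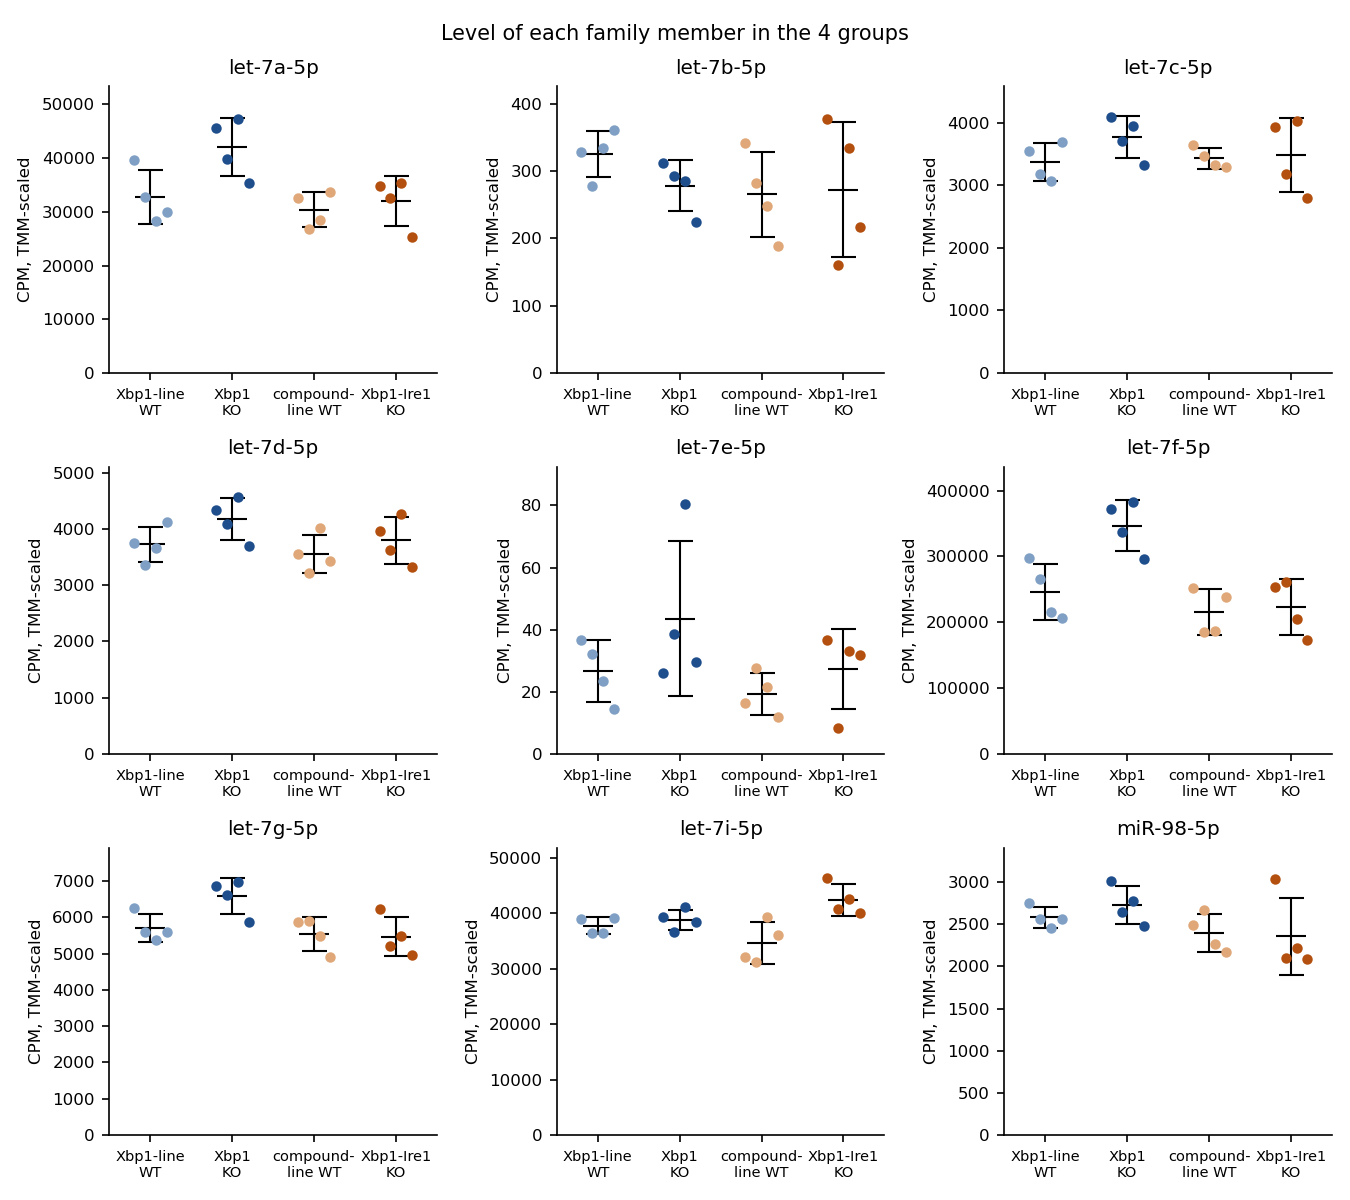
Level of each member in CPM on TMM-scaled library sizes (y axis, each panel with its own scale from 0) in the 4 groups. Points are libraries and bars are means ± SD (n = 4); every member has its highest mean in Xbp1 KO except let-7i-5p, highest in Xbp1-Ire1 KO, and let-7b-5p, highest in the Xbp1-line WT.

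In Xbp1 KO against Xbp1-line WT, the fitted level was higher for 8 of the 9 members, with let-7f-5p and let-7a-5p leading among the abundant ones, but no member passed the test. Levels from here on are CPM, the count per 1000000 of the TMM-scaled library size, tested with edgeR's quasi-likelihood test over 255 microRNAs, where a Benjamini-Hochberg adjusted p under 0.05 counts as called. For let-7f-5p the Xbp1-line WT libraries 4, 5, 6 and 8 stood at 297125, 265755, 215453 and 207322 CPM, and Xbp1 KO 1 to 4 at 371547, 337392, 382353 and 296506 CPM. Only Xbp1 KO 4 fell within the WT range, just under its highest library. The log2 fold change was 0.49 (SE 0.15, 95% interval 0.18 to 0.81, edgeR adjusted p 0.0883). let-7a-5p stood at 39722, 32704, 28272 and 30041 CPM in Xbp1-line WT 4, 5, 6 and 8 and at 45636, 39857, 47220 and 35437 CPM in Xbp1 KO 1 to 4. Xbp1 KO 4 again lay inside the WT range, which Xbp1-line WT 4 extends upwards. Its log2 fold change was 0.36 (SE 0.14, interval 0.076 to 0.65, edgeR adjusted p 0.178).

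The remaining members gave log2 fold changes from −0.22 for let-7b-5p to 0.68 for let-7e-5p. The latter rests on 6 to 39 counts per Xbp1-line WT library and on 27, 37, 100 and 22 counts in Xbp1 KO 1 to 4, and without Xbp1 KO 3 it was 0.21. The median over the members was 0.16 against −0.065 over all 255 microRNAs. With total counts alone 6 of the 9 members were higher, and let-7i-5p, at 0.041 (SE 0.097) with TMM, was then at −0.065. In edgeR 0 of 9 members were called, where 2.35% of the 255 were, and 2 members had an unadjusted p under 0.05, as had 40 of the 255. The CPM ranges overlapped for all 9 members, whereas they did not for 11.8% of the 255. DESeq2 called 1 (let-7f-5p), and 7.06% of the 255. limma voom called 0, and 3.14% of the 255. The adjusted p of let-7f-5p passed in 6 of 21 alternatives and ranged from 0.000727 to 0.365 over them. Among these 6 were a scaling computed without the 9 members (0.58, edgeR adjusted p 0.0375), thinning of all libraries to the smallest total (0.57, adjusted p 0.0253), and leaving out Xbp1-line WT 4 (0.63, adjusted p 0.0462).

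In Xbp1-Ire1 KO against compound-line WT, the member with the smallest p was let-7i-5p, and let-7f-5p and let-7a-5p stood near their WT level. Compound-line WT 1 to 4 held 32091, 31095, 39225 and 35977 CPM of let-7i-5p, and Xbp1-Ire1 KO 1 to 4 held 46249, 40647, 42489 and 40015 CPM. All 4 deficient libraries lay above all 4 WT libraries, with compound-line WT 3 and Xbp1-Ire1 KO 4 the nearest pair. The log2 fold change was 0.29 (SE 0.097, 95% interval 0.089 to 0.49), and the edgeR adjusted p of 0.0863 did not pass. Its value was 0.020 with upper-quartile scaling. DESeq2 (adjusted p 0.00449) and thinning (adjusted p 0.0358) called it, and over 22 alternatives the adjusted p ranged from 0.00449 to 0.949.

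For let-7f-5p the 2 groups of the compound line stood at 215819 ± 34554 and 223210 ± 41890.2 CPM (SD, n = 4). The change on the log2 scale was 0.049 (SE 0.15, interval −0.27 to 0.36), and it turned negative in 9 of 22 alternatives. The other members gave log2 fold changes between −0.022 and 0.49, the highest again for let-7e-5p on 3 to 34 counts per library. Of the 9 members, 7 were higher with TMM, but 2 with total counts alone and 2 with upper-quartile scaling, let-7i-5p among them each time. The median was 0.056 against 0.044 over all tested microRNAs. edgeR called 0 of 9 members, where 5.88% of the 255 passed, with 1 member at an unadjusted p under 0.05, as had 51 of the 255. DESeq2 called 1 member and 9.41% of the 255, and limma voom 0 members and 5.88%. The ranges of 1 of 9 members did not overlap, where this held for 9.80% of the 255.

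**Figure D3:**
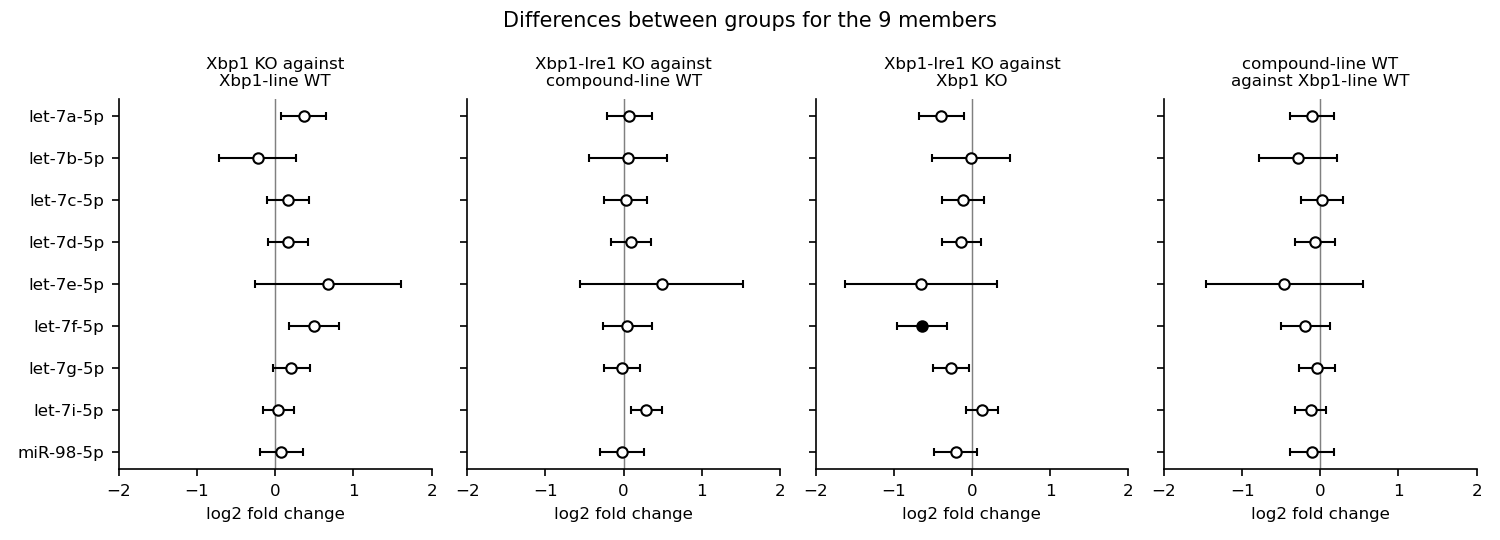
Log2 fold change (x axis) of each member in the 4 comparisons between groups, from edgeR's fit of all 16 libraries. Points are estimates, bars are 95% intervals and a filled point is a member with an adjusted p under 0.05, which holds only for let-7f-5p in Xbp1-Ire1 KO against Xbp1 KO, at −0.64.

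Whether the 2 losses moved the family differently was tested as the difference of both changes, Xbp1-Ire1 KO minus its WT less Xbp1 KO minus its WT. For let-7f-5p this difference was −0.45 (SE 0.21, 95% interval −0.89 to 0.0020, edgeR adjusted p 0.474). For let-7a-5p it was −0.29 (SE 0.19, interval −0.69 to 0.12) and for let-7i-5p 0.25 (SE 0.14, interval −0.036 to 0.54, edgeR adjusted p 0.623). The direction of let-7i-5p turned with upper-quartile scaling, at −0.14. In edgeR 0 of 9 members and 0% of the 255 were called, and 0 members had an unadjusted p under 0.05, as had 26 of the 255. DESeq2 called 0 members and 1.96% of the 255, and limma voom 0 and 0%. The intervals still hold differences of the size seen in single comparisons, so equal changes are not shown.

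Between the deficient genotypes, let-7f-5p was lower in Xbp1-Ire1 KO, the 1 member that passed in any of the 5 comparisons. This comparison uses the same deficient libraries as the comparisons with WT and includes any difference between the lines. Xbp1-Ire1 KO 1 to 4 held 252979, 261990, 205135 and 172737 CPM of let-7f-5p, all below the 296506 to 382353 CPM of Xbp1 KO. The log2 fold change was −0.64 (SE 0.15, 95% interval −0.95 to −0.32, edgeR adjusted p 0.0180). It was negative in all 21 alternatives, between −0.87 and −0.47, with adjusted p from 2.54e-09 to 0.247. The call was lost without Xbp1 KO 2 (adjusted p 0.0830), without Xbp1-Ire1 KO 3 (adjusted p 0.0766), in limma on the authors' deposited log2 values (adjusted p 0.247) and with the log2 library total as covariate (−0.47, edgeR adjusted p 0.201).

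Xbp1-Ire1 KO 1 to 4 held 34860, 32620, 35282 and 25229 CPM of let-7a-5p, all below the lowest Xbp1 KO library, which is Xbp1 KO 4 at 35437 CPM. The log2 fold change, −0.39 (SE 0.14), missed the threshold in edgeR (adjusted p 0.0939) and passed it in 10 of 21 alternatives, DESeq2 among them (adjusted p 0.0199), over a range of 0.00298 to 0.589. For let-7g-5p the value was −0.27 (SE 0.11, edgeR adjusted p 0.192), at 5465 ± 545 against 6585 ± 497 CPM (SD, n = 4). let-7i-5p gave 0.13 (SE 0.097, edgeR adjusted p 0.538), the 1 member of 9 with a positive value, and was at −0.12 with upper-quartile scaling. The other 8 members were negative with TMM, 7 with total counts alone and all 9 with upper-quartile scaling. The median over the members was −0.21 against 0.13 over all tested microRNAs. edgeR called 1 of 9 members, where 7.45% of the 255 passed in either direction and 2.35% as lower. An unadjusted p under 0.05 was seen for 3 members and for 44 of the 255. DESeq2 called 3 members and 12.5% of the 255, and limma voom 1 member and 7.06%. The CPM ranges of 2 of 9 members did not overlap, as for 11.8% of the 255.

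Between the WT groups of the lines, 8 of 9 members were lower in the compound line with TMM and 3 of 9 with upper-quartile scaling, at values within the spread of the libraries. For let-7f-5p the log2 difference was −0.19 (SE 0.15, 95% interval −0.51 to 0.12, edgeR adjusted p 0.766). The median was −0.11 against 0.0026 over all tested microRNAs. edgeR called 0 of 9 members and 0% of the 255, with 0 members at an unadjusted p under 0.05, as had 24 of the 255. DESeq2 called 0 members and 1.57% of the 255, and limma voom 0 and 0%. The CPM ranges overlapped for all 9, and failed to for 4.31% of the 255.

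The make-up of the family does not depend on how libraries are scaled to each other, and let-7f-5p dominated it in each group. In Xbp1-line WT 4, 5, 6 and 8 it was 75.7%, 76.0%, 73.0% and 70.8% of the family's counts, and in Xbp1 KO 1 to 4 it was 78.2%, 78.2%, 78.2% and 76.8%. In compound-line WT 1 to 4 it was 75.8%, 71.6%, 69.3% and 74.0%, and in Xbp1-Ire1 KO 1 to 4 it was 71.9%, 75.0%, 68.5% and 68.7%. All Xbp1 KO libraries lay above all other 12, and the remaining groups overlapped. The share of let-7i-5p ran the other way, at 8.77% ± 0.779 in Xbp1 KO, 11.5% ± 1.62 in the Xbp1-line WT, 11.8% ± 2.03 in the compound-line WT and 13.7% ± 1.8 in Xbp1-Ire1 KO (SD, n = 4). let-7a-5p kept a share between 9.18% and 11.8% in all libraries.

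Against Xbp1-line WT, the family shares of 5 members in Xbp1 KO did not overlap, higher for let-7f-5p and lower for let-7b-5p, let-7c-5p, let-7g-5p and miR-98-5p. Set over the family's sum in the same way, 17.9% of the 246 other tested microRNAs did not overlap, 0.813% higher and 17.1% lower. Between the deficient genotypes 4 members did not overlap, with let-7f-5p lower and let-7c-5p, let-7d-5p and let-7i-5p higher in Xbp1-Ire1 KO, where this held for 22.4% of the other 246, 22.0% higher and 0.407% lower. Against compound-line WT and between the WT groups it held for 0 of 9, and for 8.13% and 2.85% of the others. Shares of 1 family sum to a fixed total, so a larger share of let-7f-5p lowers the rest, and these counts are a description.

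Ratios between 2 members within a library avoid that sum. The ratios given here and above were chosen after their values were seen. How often ratios of other microRNAs fail to overlap was not computed, so their ranges are a description. let-7f-5p over let-7i-5p was 8.93 ± 0.802 in Xbp1 KO, 6.54 ± 1.11 in the Xbp1-line WT, 6.31 ± 1.29 in the compound-line WT and 5.27 ± 0.918 in Xbp1-Ire1 KO (SD, n = 4). The ranges of the Xbp1 line's groups did not overlap, with 7.74 as the lowest Xbp1 KO value and 7.64 as the highest WT value. For let-7i-5p over let-7g-5p, which differ at 2 bases, Xbp1-Ire1 KO 1 to 4 gave 7.44, 7.81, 7.75 and 8.07. This was above compound-line WT 1 to 4, at 5.47, 5.27, 7.14 and 7.34, and above Xbp1 KO 1 to 4, at 5.72, 5.55, 5.87 and 6.52. The compound-line WT libraries thus fell into 2 below and 2 near the deficient values. let-7f-5p over let-7a-5p had group means closer together, at 8.27 ± 0.177 in Xbp1 KO, 7.53 ± 0.504 in its WT, 7.08 ± 0.499 in the compound-line WT and 6.99 ± 0.924 in Xbp1-Ire1 KO. The ranges of the deficient genotypes still did not overlap, with 8.03 as the highest Xbp1-Ire1 KO value and 8.10 as the lowest Xbp1 KO value.

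**Figure D4:**
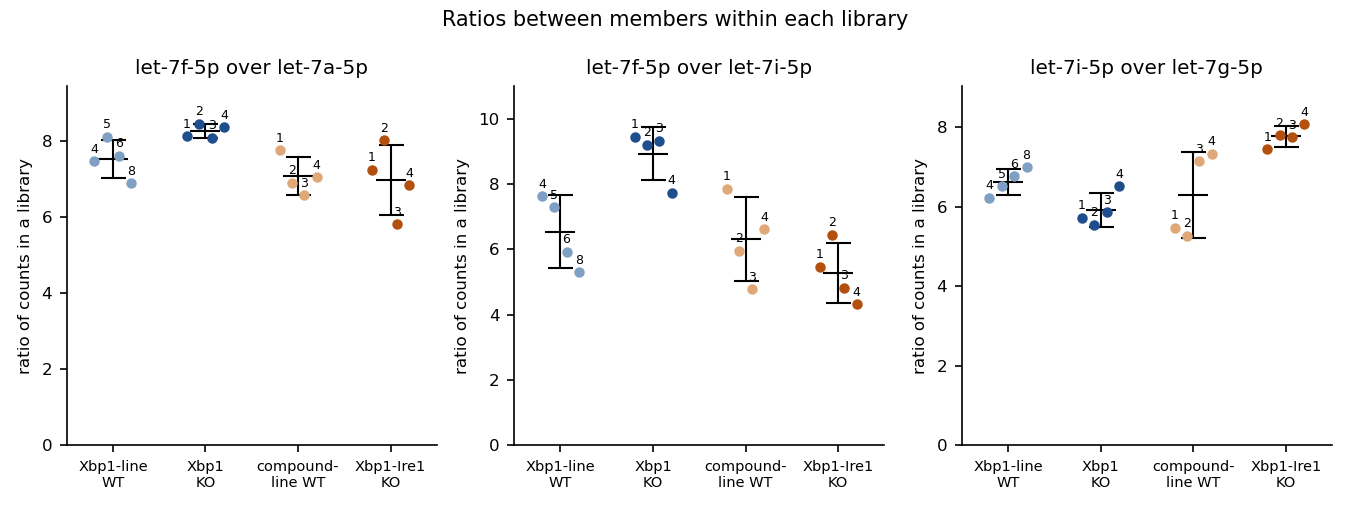
Ratio of the raw counts of 2 members within each library (y axis) for 3 pairs, by group. Points are libraries with their replicate numbers and bars are means ± SD (n = 4); let-7f-5p over let-7i-5p is highest in Xbp1 KO (8.93), and let-7i-5p over let-7g-5p is highest in Xbp1-Ire1 KO, at 7.44 to 8.07.

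Library depth moved with the let-7f-5p share. Over the 16 libraries the share of let-7f-5p correlated with the log2 library total with Pearson's r of 0.65 (permutation p 0.0068) and Spearman's rho of 0.64 (permutation p 0.00874), the 1 relation computed here. The permutations ignored the groups, so these p-values also hold differences between the groups. Without the 2 libraries farthest from the median total r was 0.60. The r of the deviations from group means was 0.37, for which no p was computed. Within groups the sign differed: the deepest Xbp1-line WT library had the highest share of its group, while compound-line WT 3, the deepest of its group, had the lowest. The groups hold 4 libraries each, too few for an r within a group. After all libraries were thinned to 175165 counts the log2 fold change of let-7f-5p between the deficient genotypes was −0.70 (edgeR adjusted p 0.0117), and with the log2 total as covariate −0.47 (edgeR adjusted p 0.201).

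**Figure D5:**
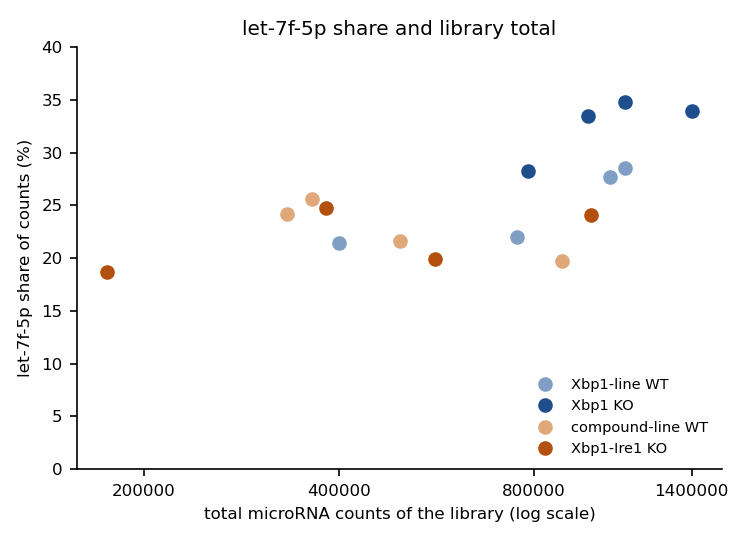
Share of let-7f-5p in the microRNA counts of a library (percent, y axis) against the library's total count (x axis, log scale), 1 point per library, coloured by group. Xbp1 KO 1, 2 and 3 have the highest shares, up to 34.8%, Xbp1 KO 4 lies just under the highest Xbp1-line WT library, and the shallowest library, Xbp1-Ire1 KO 4, has the lowest, 18.7%.

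The members did not vary as a block. Over the 16 libraries the log2 CPM of let-7a-5p correlated with that of the other 8 members summed at r = 0.94, let-7f-5p at 0.78, let-7g-5p at 0.78, miR-98-5p at 0.58, let-7d-5p at 0.56, let-7c-5p at 0.54 and let-7e-5p at 0.40. let-7i-5p (0.17) and let-7b-5p (0.10) gave the lowest values. Taken as deviations from group means these were 0.89 for let-7a-5p, 0.68 for let-7f-5p, 0.50 for let-7g-5p and 0.19 for let-7i-5p. All share their libraries and scaling, and the sum is mostly let-7f-5p for every member but let-7f-5p itself. Apart from the 9 members, the microRNAs whose log2 CPM followed the family's sum most closely were MIMAT0000384 and MIMAT0004934. MIMAT0000384 had r = 0.76 (rho 0.83, 0.82 within groups, 0.66 without the 2 libraries farthest from the median). MIMAT0004934 had r = 0.73 (rho 0.75, 0.67 within groups, 0.66 without those 2). They were picked as the highest of 246 values, so their r is a description, and the files do not give their names. Only the 9 members were left out of the search. Either microRNA may thus be an opposite-arm product of the family's own hairpins, which could not be checked here.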

How the data were processed

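Per the labels' protocols, 5000 to 50000 sorted cDC1s per sample were lysed in Qiazol, RNA was isolated (miRNeasy Micro), and TruSeq small RNA libraries were size selected (Pippin Prep). Bowtie 1.1.2, cutadapt 1.8.1, FastQC 0.11.3, limma 3.42.2, GRCm38 and mm10 are listed in the submitters' processing notes, with no roles. The authors deposited raw counts of reads per microRNA, and log2 values for 473. These equal log2 of the count plus 0.5, shifted by a constant for each library (from the values). That constant was not compared with the library totals. The log2 fold change of let-7f-5p in Xbp1 KO against Xbp1-line WT was 0.58 on these values and 0.39 with total counts alone. No column was of another sample.

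The raw counts were tested with edgeR 4.0.16 in R 4.3.3: TMM, filterByExpr (count minimum 10; 255 microRNAs, all 9 members; the lowest share of counts kept was 99.9%), 1 quasi-likelihood fit over 16 libraries and 4 group means without a replicate block, 5 comparisons, adjusted p over all 255. Log2 CPM for correlations used a prior count of 1. Other settings included DESeq2 1.42.0 and limma 3.58.1. Steps were tested on simulated data. Members, lists and tests were chosen with earlier results of these data known, and the ratios after their values were seen. Besides the members, the rule named the 3 microRNAs most like the family, reduced to 2 because identifiers have no names here, and list members, which could not be matched.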

Additional observations from a re-analysis of the deposited data

Results flagged for a closer look

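Within a group, a library is given here where it stood apart from its nearest neighbour by more than Dixon's test allows at 95% for 4 samples (gap relative to the range). Of 76 groups of values 5 did so, where chance gives about 1 in 20, and shares of 1 family are linked. Xbp1 KO 4 held 76.8% of the family as let-7f-5p, against 78.2% in each of the other 3, and 9.93% as let-7i-5p, against 8.27% to 8.50%. It is the shallowest library of its group, at 783372 counts. The let-7c-5p share of the family in Xbp1 KO 3 was 0.806%, against 0.860% to 0.862%. Xbp1-Ire1 KO 2 stood at 8.33 CPM of let-7e-5p, on 3 counts, against 31.7 to 36.5 CPM. Xbp1-Ire1 KO 1, the deepest library of its group, stood at 3038 CPM of miR-98-5p against 2082 to 2217 CPM.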

How the results depend on the processing

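The number of members called, 0 of 9 in Xbp1 KO against WT, became 1 without the filter, with scaling computed without the members, with DESeq2 and with thinning, and 2 with all 8 WT libraries as control. Leaving out 1 library gave 0 to 1. In Xbp1-Ire1 KO against WT, 0 became 1 with DESeq2 and with thinning. Between the deficient genotypes, 1 became 2 with DESeq2 size factors, with scaling without the members, without the filter, with a filter of 10 CPM in 4 libraries, with thinning and with the replicate block, 3 with DESeq2, 4 with upper-quartile scaling, and 0 with limma on the deposited log2 values and with the log2 total as covariate. Leaving out 1 library gave 0 to 4: 0 without Xbp1 KO 2 or Xbp1-Ire1 KO 3, 3 without Xbp1 KO 4 and 4 without Xbp1-Ire1 KO 1. Over all microRNAs, 19 of 255 were called between the deficient genotypes, and 32 of 255 by DESeq2, 26 of 255 with upper-quartile scaling, 0 of 473 by limma on the log2 values and 3 of 255 with the covariate. For the difference of the changes and between the WT groups, 0 members were called in each setting tried. Over all microRNAs DESeq2 called 5 of 255 for the difference and 4 of 255 between the WT groups. Without the filter these were 2 of 808 and 14 of 808.

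In Xbp1-Ire1 KO against WT, 7 of 9 members were positive with TMM and 2 with total counts alone or upper-quartile scaling. For let-7f-5p there the log2 fold change was −0.063 with total counts alone, −0.22 with upper-quartile scaling, −0.013 with the 10 CPM filter, −0.0021 with the replicate block, −0.047 with all 8 WT libraries and −0.096 to 0.090 with 1 library left out. For let-7i-5p it was −0.065 in Xbp1 KO against WT with total counts alone, −0.14 for the difference of the changes with upper-quartile scaling, and between the deficient genotypes −0.12 with upper-quartile scaling, −0.033 without the filter and −0.0090 to 0.084 with 1 library left out. The cause was not tested. Upper-quartile scaling moved the median of all microRNAs by 0.12, −0.28, −0.39, −0.24 and 0.15 in the order of the comparisons, and total counts alone by −0.10 and −0.12 in the first 2. Between the deficient genotypes edgeR called 13 microRNAs higher and 6 lower, but scaled by total counts 14 and 1, by upper quartiles 4 and 22, and by DESeq2's factors 12 and 12. As percent of the TMM-scaled library the family's mean was 44.5% in Xbp1 KO and 29.6% in the compound-line WT, and 47.1% and 28.4% with TMM computed over all microRNAs, a setting added after seeing the data.

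Replicate numbers were not taken to pair libraries. Correlations of same-numbered deviations ran from −0.26 to 0.26 in the compound line (2 of 4 libraries best with their own number). They ran from −0.069 to 0.10 between the deficient genotypes (1 of 4) and from −0.047 to 0.15 between Xbp1 KO and compound-line WT (3 of 4). Libraries with different numbers gave −0.30 to 0.26, −0.19 to 0.14 and −0.16 to 0.12 in the same order. With 4 libraries per group these values cannot decide whether the numbers pair libraries. The Xbp1-line WT was not checked. With the replicate block let-7a-5p joined let-7f-5p between the deficient genotypes (−0.41, edgeR adjusted p 0.0391), and 4 instead of 15 microRNAs were called in Xbp1-Ire1 KO against WT. Depth limits let-7e-5p and let-7b-5p. After thinning, let-7e-5p was not tested.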
